A study of Mus musculus with 10 samples.

Results

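Cell division in the embryonic mouse pancreas was followed through 36 genes of the cell cycle and of DNA replication, taken by gene symbol from a table of 54532 genes. They fall into 5 roles: 5 G1 cyclins and regulators of S-phase entry, 9 genes of replication licensing and the replicative helicase, 5 genes of DNA synthesis, nucleotide supply and the S-phase checkpoint, 9 mitotic cyclins, kinases and their regulators, and 8 chromosome, kinetochore and spindle proteins. Each symbol occurred once in the table, and all 36 genes passed the filter on low counts.

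RNA came from whole pancreas at embryonic days 13.5 and 14.5 (E13.5 and E14.5) of Fgf9-LacZ mice on a C57BL/6J background. In this line a LacZ cassette sits in the Fgf9 locus and removes the function of Fgf9, a secreted fibroblast growth factor. The null-labelled embryos were Fgf9 -/-, and the littermate controls were a mix of Fgf9 +/+ and Fgf9 +/- embryos. Every library pooled several pancreata: 7 and 6 in the null-labelled and 12, 7 and 12 in the control libraries at E13.5, and 4 and 3 in the null-labelled and 8, 7 and 6 in the control libraries at E14.5. There were thus 2 null-labelled and 3 control libraries at each stage. Whether the pools are of different litters is not given, so p-values speak only for the spread among the pools, which may be technical in part.

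A dividing cell leaves G1 when cyclin D and cyclin E kinases inactivate the retinoblastoma protein and free E2F factors, which switch on replication genes. Origins are licensed by loading the ring-shaped MCM helicase, DNA is copied once, and cyclin A and cyclin B kinases together with Polo-like and Aurora kinases then carry the cell through mitosis. In the pancreas of this age the epithelial progenitors and the surrounding mesenchyme both divide, and FGFs from the mesenchyme are known mitogens of the epithelium.

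Total counts ran from 17736769 to 22798257 per library, and the 36 genes took 0.583 to 0.705% of them, with 584 to 16817 counts per gene and library. Levels are given as CPM, each library's counts brought to the same total and adjusted with TMM factors, which ran from 0.945 to 1.05. The library numbered 1 had the lowest summed level of the 36 genes in each of the 4 groups, so results are also given without those 4 libraries. The summed levels were 5820 and 6228 CPM in E13.5 null-labelled libraries, against 6334, 7076 and 6855 CPM in E13.5 controls. At E14.5 they were 5772 and 6288 CPM in null-labelled libraries, against 6122, 6990 and 7400 CPM in controls. Both E13.5 null-labelled sums lay under all 3 controls, while the E14.5 sums overlapped. As a check of the labels, Fgf9 itself was at 5.57 and 7.66 CPM in E13.5 null-labelled libraries, against 18.4, 11.3 and 16.2 CPM in controls. All controls were higher, at a log2 difference of -1.21 that did not pass (edgeR adjusted p = 0.29). A second fit, blocked on the replicate number, called Fgf9 at this stage (edgeR adjusted p = 0.026). Between genotypes that fit rests on the libraries numbered 1 and 2, since control 3 has no null-labelled partner. At E14.5 Fgf9 was at 11.7 and 6.14 CPM in null-labelled libraries, against 13.6, 8.76 and 6.96 CPM in controls. The E14.5 levels overlapped. A count per gene cannot tell transcript before the insertion from transcript after it, so Fgf9 does not check the labels here and the groups are called null-labelled throughout. The tissue label was matched by pancreatic markers in every library, with summed levels of 8 progenitor genes from 435 to 887 CPM and of 10 acinar genes from 2616 to 23828 CPM.

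**Figure D1:**
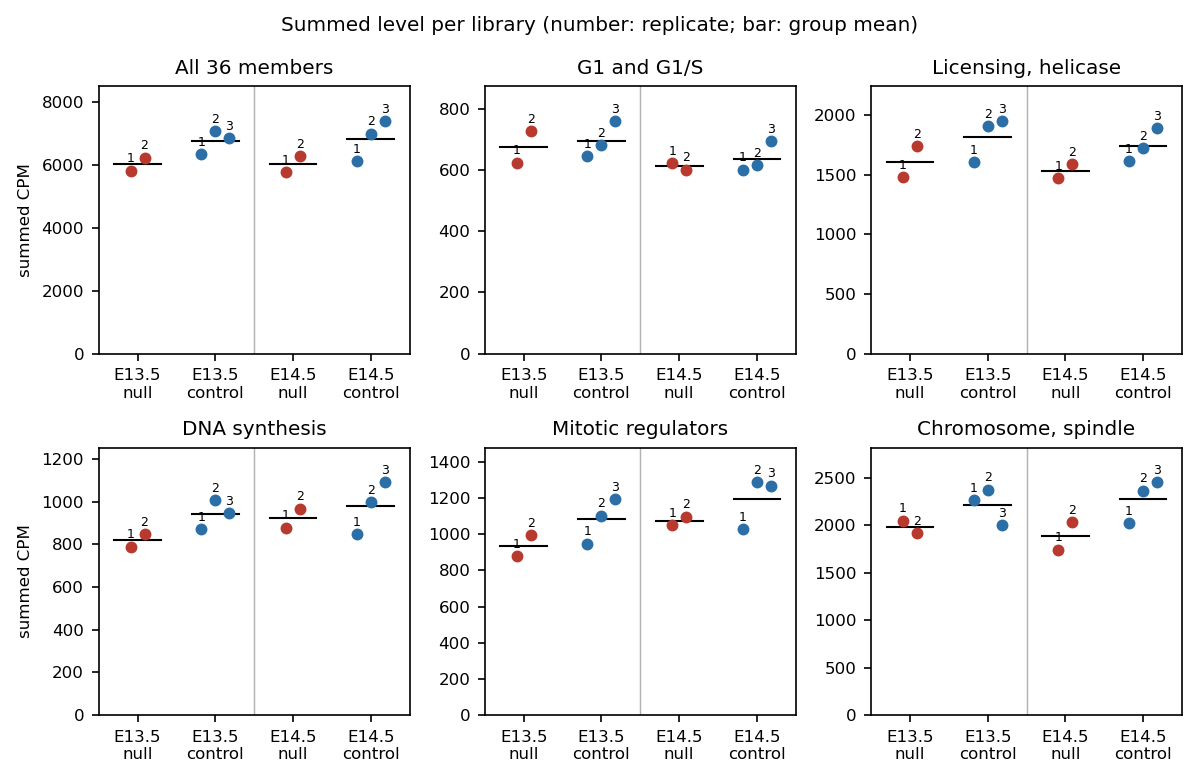
Summed CPM of all 36 genes and of each role, 1 point per library with its replicate number, null-labelled libraries in red and left of the controls in blue at each stage, and a bar at the group mean. The library numbered 1 has the lowest sum over all 36 genes in every group.

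Per kilobase of annotated exon, the genes spanned a wide range of levels. Coordinates below are chromosome, start and end on the GRCm38 build, from the GENCODE annotation, which gave exon lengths for all 36 genes. The length merges all annotated exons of a gene over all its transcripts and can exceed that of its RNA, so the ranks depend on it. Pcna, the sliding clamp of DNA polymerases, was highest at 113 CPM per kilobase averaged over the 10 libraries, followed by the DNA topoisomerase gene Top2a at 77.1, the helicase subunit gene Mcm6 at 76.6 and the anaphase activator gene Cdc20 at 73.9. The lowest were Mcm10, an initiation factor that activates the helicase, at 6.71, the licensing factor gene Cdc6 at 9.76, the kinetochore gene Cenpf at 9.95 and the checkpoint kinase gene Chek1 at 10.7 CPM per kilobase. The MCM ring subunits Mcm2 to Mcm7, which form 1 complex, lay between 31.7 for Mcm2 and 76.6 CPM per kilobase for Mcm6. Mcm2 had 6.96 kilobases of merged exon, while the other ring subunits had 3.59 (Mcm4) to 4.67 (Mcm6). Not divided by length, the ring subunits lay between 209 CPM for Mcm3 and 358 CPM for Mcm6, with Mcm2 at 220 CPM. Within groups the most even genes were Mcm10, Foxm1 and E2f1, with a standard deviation (SD) of log2 CPM of 0.09, 0.09 and 0.10. The most scattered were Cdc20, Ccne2 and Rrm2, at 0.26, 0.25 and 0.24.

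Genes of these roles are known to carry 2 kinds of control element in their promoters, and the promoters of 4 members are shown for that reason. Genes switched on for mitosis often hold the cell cycle genes homology region, searched as TTTGAA, beside CCAAT boxes. Genes switched on at S-phase entry often hold E2F sites, searched as TTTCCCGC, TTTCGCGC, TTTGCCGC and TTTGGCGC. Each word was searched on both strands in RefSeq promoter windows of the GRCm38.p6 build, which run from 250 bases before to 50 bases after a gene's start. Entries were found for 29 of the 36 genes, with 30 windows. The windows below are those of Cdk1 at chr10:69352863-69353162 and Ccnb2 at chr9:70421505-70421804 for mitosis, and of Mcm3 at chr1:20820263-20820562 and Mcm5 at chr8:75109259-75109558 for licensing. Mcm5 is on the plus strand and the other 3 are on the minus strand. All are read 5′ to 3′ along the gene, and capitals mark every match to any of the words on either strand.
Cdk1: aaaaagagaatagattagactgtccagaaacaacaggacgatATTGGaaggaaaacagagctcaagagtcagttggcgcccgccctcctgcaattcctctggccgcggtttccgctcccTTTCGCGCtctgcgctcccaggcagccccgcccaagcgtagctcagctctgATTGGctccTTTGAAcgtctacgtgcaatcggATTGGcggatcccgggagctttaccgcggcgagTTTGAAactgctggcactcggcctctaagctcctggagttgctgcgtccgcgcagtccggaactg
Ccnb2: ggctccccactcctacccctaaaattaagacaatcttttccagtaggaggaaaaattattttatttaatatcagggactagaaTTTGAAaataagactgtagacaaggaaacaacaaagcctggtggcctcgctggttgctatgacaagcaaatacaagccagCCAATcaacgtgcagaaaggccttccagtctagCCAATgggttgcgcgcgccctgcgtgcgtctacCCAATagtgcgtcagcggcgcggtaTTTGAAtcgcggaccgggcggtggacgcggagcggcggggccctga
Mcm3: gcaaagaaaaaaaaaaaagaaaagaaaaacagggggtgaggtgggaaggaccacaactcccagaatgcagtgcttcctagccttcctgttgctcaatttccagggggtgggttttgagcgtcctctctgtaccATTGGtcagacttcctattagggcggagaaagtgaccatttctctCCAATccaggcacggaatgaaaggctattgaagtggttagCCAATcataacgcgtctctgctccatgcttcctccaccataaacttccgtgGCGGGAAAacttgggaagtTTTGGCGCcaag
Mcm5: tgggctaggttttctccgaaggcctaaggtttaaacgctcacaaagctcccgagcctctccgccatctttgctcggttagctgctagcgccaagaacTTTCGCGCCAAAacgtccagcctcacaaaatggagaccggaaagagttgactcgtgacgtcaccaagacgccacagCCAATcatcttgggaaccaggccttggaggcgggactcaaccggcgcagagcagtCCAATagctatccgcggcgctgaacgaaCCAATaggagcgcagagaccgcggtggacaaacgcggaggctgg

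The Cdk1 window held 2 homology regions, 3 CCAAT boxes and 1 E2F word, and the Ccnb2 window held 2 homology regions, 3 CCAAT boxes and 0 E2F words. The Mcm3 and Mcm5 windows each held 0 homology regions, 3 CCAAT boxes and 2 E2F words. Those of Mcm5 overlapped each other on opposite strands, in a single marked stretch, and those of Mcm3 were separate. Over the roles the words were spread as follows. The homology region was in 5 of 6 windows of mitotic regulators and in 5 of 8 windows of chromosome and spindle genes, but in 1 of 9 licensing windows. E2F words were in 6 of 9 licensing windows, in 1 of 6 windows of mitotic regulators and in 0 of 8 windows of chromosome and spindle genes. They were also in 0 of 5 windows of DNA synthesis genes and 0 of 2 of G1 genes, so an S-phase role did not always come with one. CCAAT was found in all 6 windows of mitotic regulators, in 7 of 8 chromosome and spindle windows, in 7 of 9 licensing windows and in 3 of 5 DNA synthesis windows. The homology region was in none of the DNA synthesis and G1 windows. Over all 30 windows the homology region was in 36.7%, CCAAT in 76.7% and an E2F word in 23.3%, against 17.9%, 37.4% and 2.26% of all 32851 RefSeq windows. In 1 of the 30 windows matches of 2 different motifs shared a base. These are matches of letters and say nothing of binding in these embryos.

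No gene of the 36 passed the test between null-labelled and control pancreas at either stage, but most of the 36 fold changes lay slightly below 0. At E13.5 edgeR called 0 of the 36 genes, where it called 0.307% of the 18898 genes tested. At E14.5 it called 0 of 36, where it called 0.111% of all genes. DESeq2 and limma-voom also called 0 of 36 at both stages. At an unadjusted edgeR p under 0.05 there were 4 members at E13.5 (Chek1, Aurka, Bub1 and Birc5) and 1 at E14.5 (Mcm10), each of them lower in the null-labelled libraries, where 2.17% and 2.73% of all genes were lower at that level. The smallest edgeR adjusted p was 0.73 at E13.5 and 0.36 at E14.5. In pooled whole tissue, fewer dividing cells and less RNA per cell cannot be told apart.

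The log2 fold change, null-labelled over control, was below 0 for 35 of the 36 genes at E13.5, against 51.5% of all genes tested. It was below 0 for 33 of 36 at E14.5, against 52.7% of all genes. The libraries of the 2 stages are separate, and 32 of 36 genes were below 0 at both, against 33.1% of all genes. The exceptions were Ccnd2, Ccne1, Ccne2 and Pcna. The median was -0.20 at E13.5, a level 12.8% under the controls, and -0.16 at E14.5, 10.4% under the controls. The medians of all genes were -0.01 and -0.02. Without the 4 libraries numbered 1 the medians were -0.20 and -0.21, with 34 and 35 of 36 genes below 0 and 0 called. In the blocked fit the medians were -0.18 at E13.5 and -0.10 at E14.5, with 30 and 33 of 36 genes below 0. With single libraries left out the number below 0 ran from 29, without E13.5 null-labelled library 1, to 35 at E13.5, and from 32 to 36 at E14.5. The members share regulators and cell cycle phases, so their directions are not independent of each other. The 95% intervals of single genes had a median half-width of 0.31 on the log2 scale at either stage, wider than either median. They ran from -0.79 to 0.47 at E13.5 and from -0.79 to 0.42 at E14.5.

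**Figure D2:**
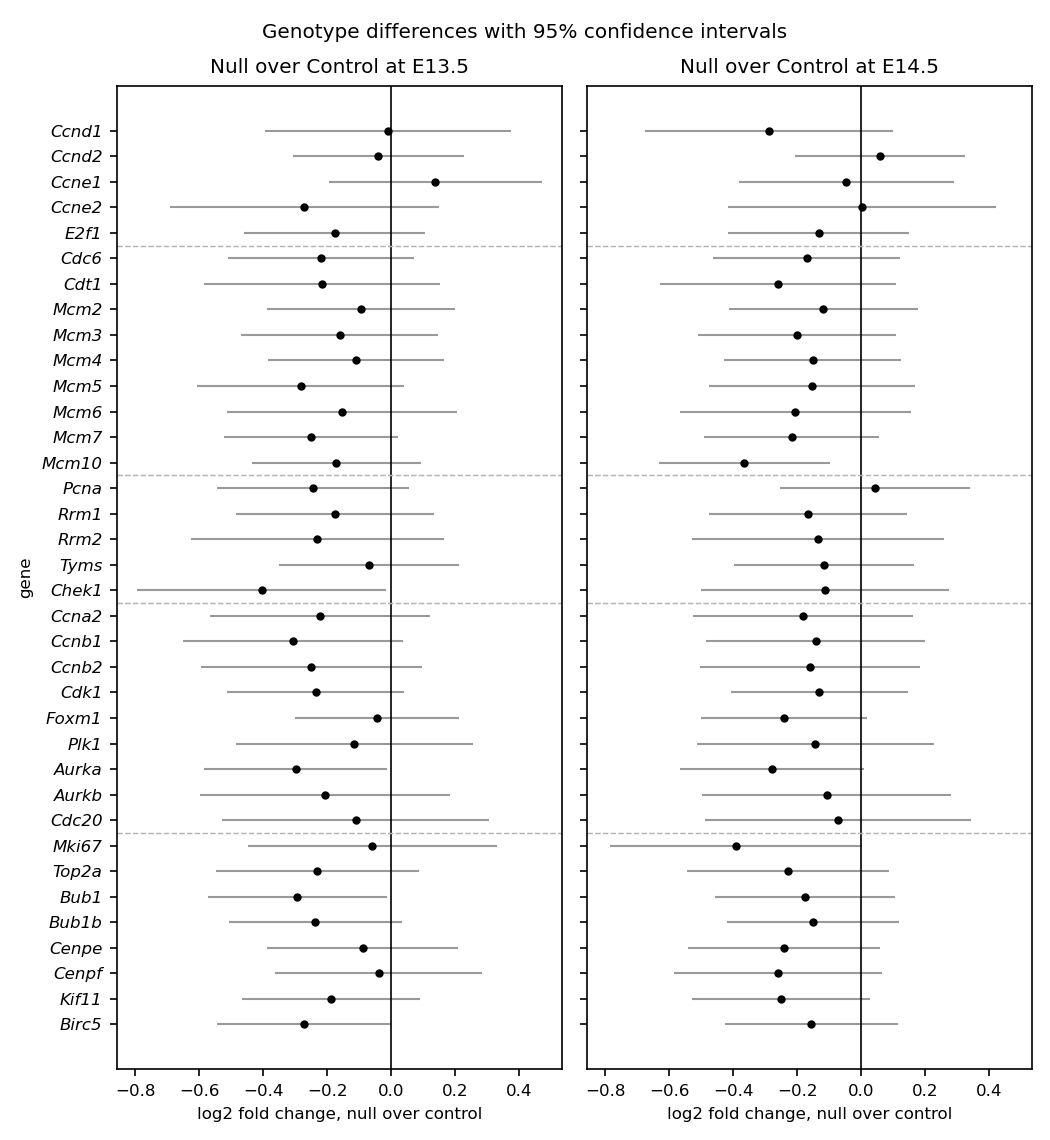
Log2 fold change of each gene, null-labelled over control, with its 95% edgeR confidence interval, at E13.5 on the left and at E14.5 on the right, with genes in the order of their roles. Points lie left of 0 for 35 of 36 genes at E13.5 and 33 of 36 at E14.5, and every interval crosses 0 except those of Chek1, Aurka, Bub1 and Birc5 at E13.5 and Mcm10 at E14.5.

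**Figure D3:**
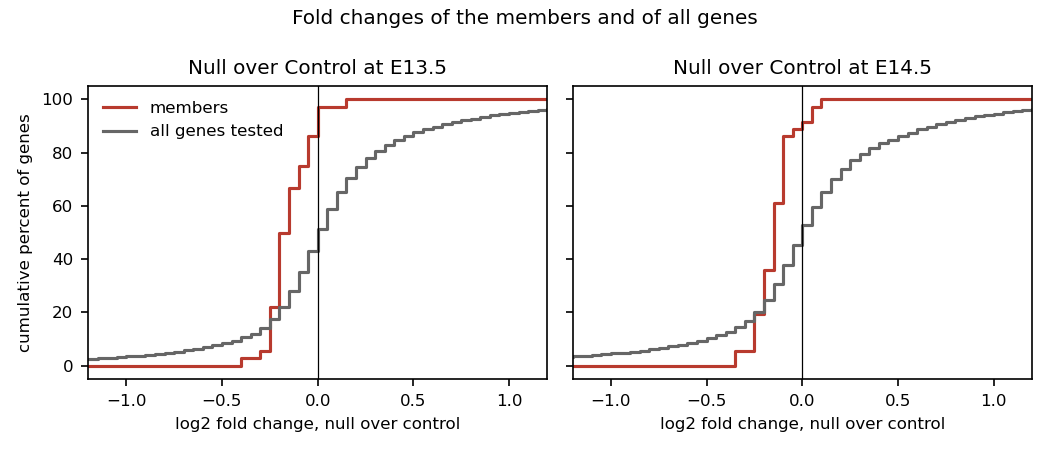
Cumulative percent of genes by log2 fold change, null-labelled over control, at E13.5 and at E14.5, for the 36 members in red and all 18898 genes tested in grey. The grey curves also hold genes of lower count, and the red curves lie to the left of them around 0, with medians of -0.20 and -0.16 against -0.01 and -0.02.

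Library by library, the null-labelled pair was under all 3 controls for 13 of 36 genes at E13.5, against 10.9% of all genes, and for 17 of 36 at E14.5, against 11.8% of all genes. Both lay above all controls for 0 of 36 genes at either stage, against 12.7% and 11.9% of all genes. The groups parted at both stages for 5 genes, against 2.19% of all genes. These were Mcm10, the S-phase entry factor gene E2f1, the mitotic kinase gene Aurka, the spindle motor gene Kif11 and Birc5, a subunit of the chromosomal passenger complex. Without the 4 libraries numbered 1, the remaining null-labelled library was below both remaining controls for 25 of 36 genes at E13.5 and 33 of 36 at E14.5, against 34.8% and 38.6% of all genes. Set against the control of the same number, null-labelled library 1 had a median difference of -0.10 log2 at E13.5, with 34 of 36 genes lower, and null-labelled library 2 one of -0.23, with 29 of 36 lower. At E14.5 the same medians were -0.08, with 23 of 36 lower, and -0.15, with 33 of 36 lower. Of all genes 50.7% and 50.3% were lower in these E13.5 pairs, and 50.7% and 51.5% in the E14.5 pairs.

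**Figure D4:**
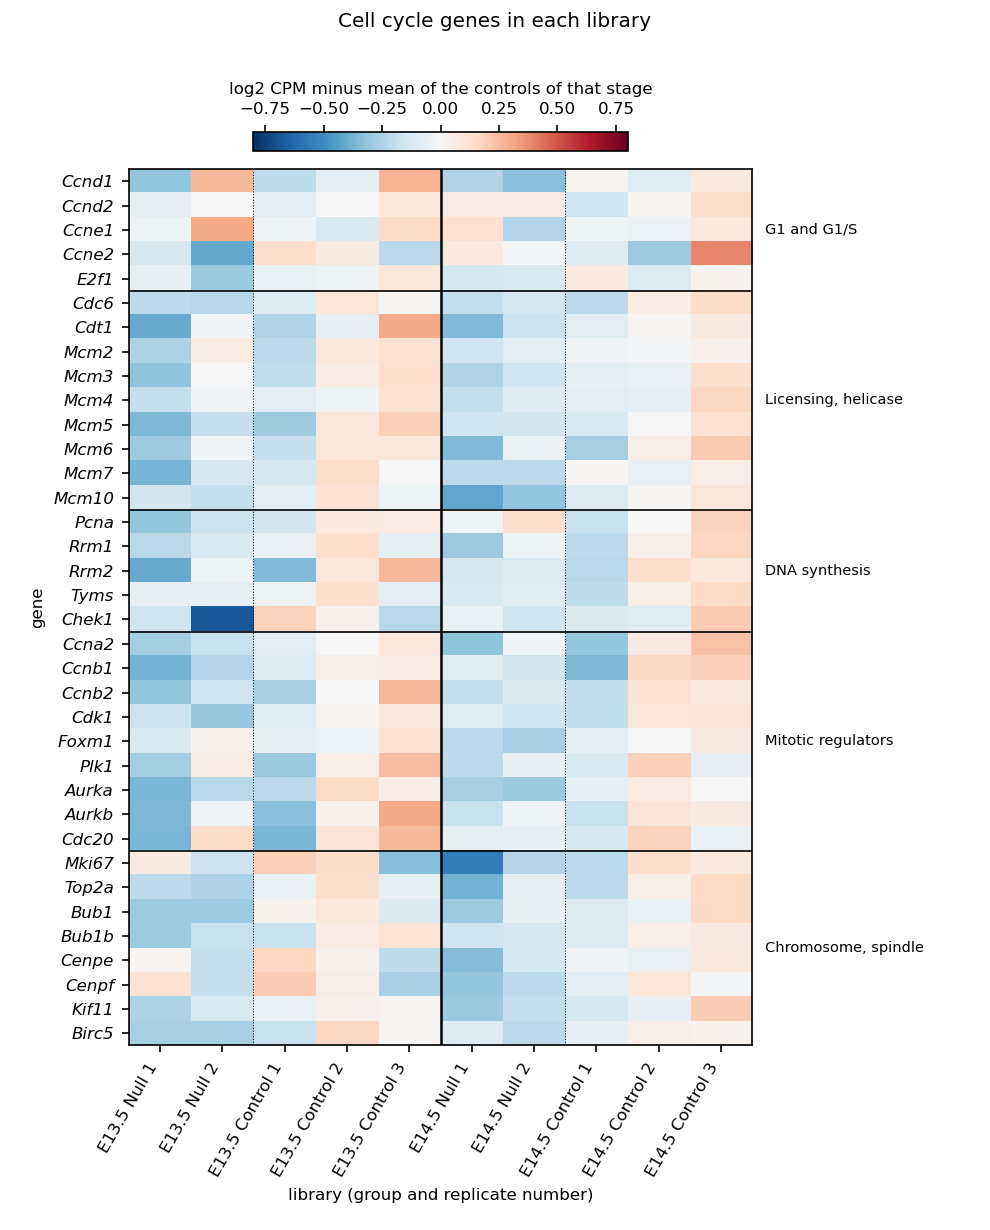
Log2 CPM of each gene in each of the 10 libraries minus the mean of the controls of that stage, with blue below and red above that mean, and null-labelled libraries left of the controls at each stage. The null-labelled columns and the controls numbered 1 are mostly blue, and most red cells are in the controls numbered 2 and 3.

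The G1 group was the least shifted of the 5 roles, with a median of -0.04 at E13.5 and -0.05 at E14.5 and 4 and 3 of 5 genes below 0. In the blocked fit 2 of 5 were below 0 at E13.5 and the median was 0.0034. Ccnd1 (ENSMUSG00000070348, chromosome 7, 144929931 to 144939925) encodes the D-type cyclin that mitogens induce. It was at 178 and 265 CPM in E13.5 null-labelled libraries, against 192, 209 and 268 CPM in controls, and the groups overlapped. At E14.5 Ccnd1 was at 155 and 146 CPM in null-labelled libraries, against 186, 172 and 194 CPM in controls. The null-labelled pair was then under all controls, at a log2 fold change of -0.29 (SE 0.18, edgeR adjusted p = 0.74), against -0.01 (SE 0.18) at E13.5. The E13.5 value rests on single libraries, since it was 0.25 without null-labelled library 1 and -0.33 without null-labelled library 2. Ccnd2 (chromosome 6, 127125162 to 127152193), the second D-type cyclin gene, was among the genes with the least spread within groups, with an SD of 0.10 log2. It was at 327 and 345 CPM in E13.5 null-labelled libraries, against 324, 346 and 366 CPM in controls. At E14.5 Ccnd2 was at 339 and 339 CPM in null-labelled libraries, against 290.2, 328 and 357 CPM in controls, the highest log2 fold change of the 36 genes at that stage, 0.06 (SE 0.12, edgeR adjusted p = 0.94). The groups overlapped at both stages.

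Ccne1 (chromosome 7, 38097984 to 38107534) encodes cyclin E1, which activates CDK2 at S-phase entry. It was at 41.2 and 52.1 CPM in E13.5 null-labelled libraries, against 41.4, 39.0 and 47.0 CPM in controls. This was the single gene above 0 at E13.5, at 0.14 (SE 0.15, edgeR adjusted p = 0.99), and without null-labelled library 2 it was at -0.05. At E14.5 Ccne1 was at 48.6 and 38.0 CPM in null-labelled libraries, against 43.6, 43.1 and 47.3 CPM in controls, and the groups overlapped at both stages. The transcription factor gene E2f1 (chromosome 2, 154559407 to 154569892) was at 36.3 and 30.8 CPM in E13.5 null-labelled libraries, against 36.5, 36.9 and 40.3 CPM in controls. At E14.5 E2f1 was at 38.3 and 38.8 CPM in null-labelled libraries, against 44.6, 39.2 and 43.1 CPM in controls. The groups did not overlap at either stage, by a narrow margin each time, with log2 fold changes of -0.18 (SE 0.13, edgeR adjusted p = 0.96) and -0.13 (SE 0.13, edgeR adjusted p = 0.86). Ccne2, the second cyclin E gene, had a log2 fold change of -0.27 at E13.5 and one of 0.002 at E14.5, with overlapping groups.

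All 9 licensing and helicase genes were below 0 at both stages, with medians of -0.17 at E13.5 and -0.20 at E14.5, and of -0.11 and -0.10 in the blocked fit, with all 9 below 0. Cdc6 (ENSMUSG00000017499, chromosome 11, 98907801 to 98923940), which loads the helicase onto origins, was at 44.3 and 43.7 CPM in E13.5 null-labelled libraries, against 47.6, 54.7 and 51.6 CPM in controls. At E14.5 Cdc6 was at 48.9 and 50.8 CPM in null-labelled libraries, against 48.4, 58.4 and 61.9 CPM in controls. The groups parted at E13.5 and overlapped at E14.5, where control 1 was below both null-labelled libraries. Mcm2 (chromosome 6, 88883474 to 88898780), a subunit of the MCM ring, was at 194 and 241 CPM in E13.5 null-labelled libraries, against 200.1, 246 and 252 CPM in controls. At E14.5 Mcm2 was at 199 and 209 CPM in null-labelled libraries, against 217, 220.4 and 227 CPM in controls. The groups overlapped at E13.5 and were apart at E14.5, with close log2 fold changes of -0.10 (SE 0.14) and -0.12 (SE 0.14, edgeR adjusted p = 0.89). Without null-labelled library 1 the E13.5 value of Mcm2 was 0.06.

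Mcm5 (chromosome 8, 75109569 to 75128439), whose promoter is printed above, was at 180.3 and 204 CPM in E13.5 null-labelled libraries, against 190.4, 247 and 264 CPM in controls. At E14.5 Mcm5 was at 215 and 217 CPM in null-labelled libraries, against 220.2, 240.1 and 262 CPM in controls. Null-labelled library 2 lay above control 1 at E13.5, and the groups were apart at E14.5. The log2 fold changes were -0.28 (SE 0.15, edgeR adjusted p = 0.84) and -0.15 (SE 0.15, edgeR adjusted p = 0.86). Mcm10, at -0.37 (SE 0.12), had the smallest edgeR adjusted p of the 36 genes at E14.5, 0.36. At E13.5 Mcm10 was at 47.5 and 46.0 CPM in null-labelled libraries, against 49.7, 57.0 and 51.4 CPM in controls, with the groups apart as at E14.5. The E14.5 levels were 43.6 and 46.6 CPM in null-labelled libraries, against 54.1, 58.6 and 61.9 CPM in controls. The remaining genes, Cdt1, Mcm3, Mcm4, Mcm6 and Mcm7, ran from -0.11 for Mcm4 to -0.25 for Mcm7 at E13.5 and from -0.15 for Mcm4 to -0.26 for Cdt1 at E14.5. Cdt1 is the partner of Cdc6 in helicase loading. The groups did not overlap for 2 of the 9 genes at E13.5 and for 7 of 9 at E14.5. Of all genes, 10.9% and 11.8% had the null-labelled pair under all controls.

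The 5 genes of DNA synthesis had medians of -0.23 at E13.5 and -0.12 at E14.5, with 5 and 4 of 5 below 0. The blocked fit left these counts and gave a median of -0.03 at E14.5. Pcna (ENSMUSG00000027342, chromosome 2, 132249162 to 132253314) was at 205 and 227 CPM in E13.5 null-labelled libraries, against 231, 269 and 267 CPM in controls. At E14.5 Pcna was at 292 and 326 CPM in null-labelled libraries, against 263, 297 and 339 CPM in controls. The null-labelled pair was under all controls at E13.5, at -0.25 (SE 0.14, edgeR adjusted p = 0.87), and the groups overlapped at E14.5, at 0.04 (SE 0.14). Rrm2 (chromosome 12, 24708241 to 24714146), the regulatory subunit of ribonucleotide reductase, was at 110.1 and 141 CPM in E13.5 null-labelled libraries, against 114, 155 and 174 CPM in controls. At E14.5 Rrm2 was at 146 and 149 CPM in null-labelled libraries, against 138, 176 and 171 CPM in controls. The controls numbered 1 were lower than a null-labelled library each time, and the groups overlapped at both stages.

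Chek1 (ENSMUSG00000032113, chromosome 9, 36708482 to 36727065), the checkpoint kinase that restrains mitosis while DNA is being copied, had the lowest log2 fold change of the 36 genes at E13.5. It was at 53.0 and 36.9 CPM in E13.5 null-labelled libraries, against 67.1, 60.6 and 50.7 CPM in controls. Null-labelled library 1 lay within the range of the controls and library 2 below all of them. The log2 fold change was -0.40 (SE 0.18, edgeR adjusted p = 0.73). In the blocked fit Chek1 was at -0.53 (edgeR adjusted p = 0.027), the 1 member called, where that fit called 3% of all genes at E13.5. Control 3, the lowest control for Chek1 at 50.7 CPM, does not enter that value. Without null-labelled library 2 the log2 fold change was -0.17, and without null-labelled library 1 it was -0.68. At E14.5 Chek1 was at 45.4 and 42.1 CPM in null-labelled libraries, against 43.5, 44.1 and 54.5 CPM in controls, and the groups overlapped. Rrm1, the other reductase subunit, and Tyms, which makes thymidylate, had E13.5 log2 fold changes of -0.18 for Rrm1 and -0.07 for Tyms, and E14.5 values of -0.17 for Rrm1 and -0.12 for Tyms.

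**Figure D5:**
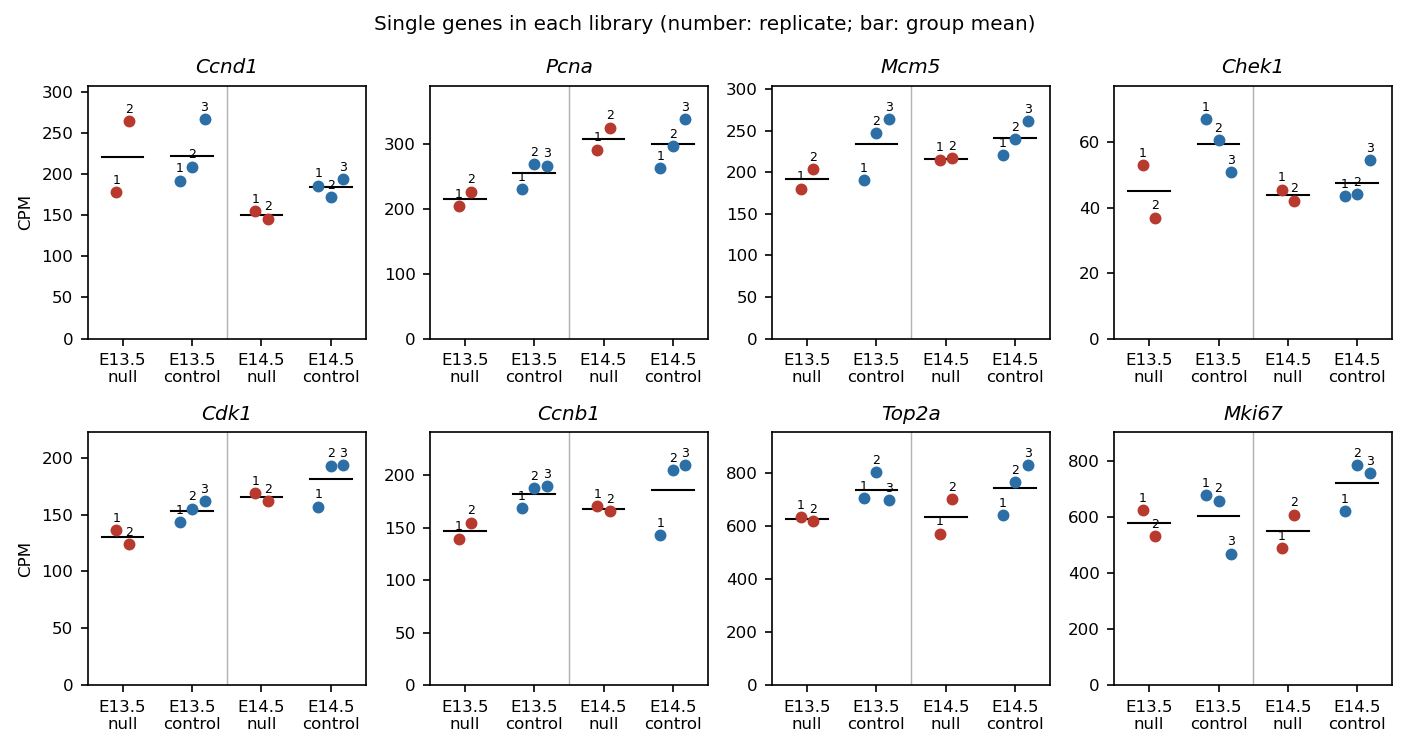
CPM of 8 genes in each library, 1 point per library with its replicate number, null-labelled in red and left of the controls in blue at each stage, with a bar at the group mean and axes starting at 0. Groups are apart for Pcna, Cdk1, Ccnb1 and Top2a at E13.5 and for Ccnd1, Mcm5 and Mki67 at E14.5, and they overlap in the other panels.

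All 9 mitotic regulators were below 0 at both stages, with medians of -0.22 at E13.5 and -0.14 at E14.5. The E13.5 result depends on the fit, since with the block 6 of 9 were below 0 with a median of -0.10, and Cdc20, Foxm1 and Plk1 lay at 0.01 to 0.02. Cdk1 (ENSMUSG00000019942, chromosome 10, 69335146 to 69352938), the kinase that starts mitosis, was at 136 and 124 CPM in E13.5 null-labelled libraries, against 143, 155 and 162 CPM in controls. At E14.5 Cdk1 was at 169 and 161 CPM in null-labelled libraries, against 157, 193 and 193 CPM in controls. The groups parted at E13.5, at -0.24 (SE 0.13, edgeR adjusted p = 0.84), and control 1 was below both null-labelled libraries at E14.5, at -0.13 (SE 0.13). Ccnb1 (chromosome 13, 100778650 to 100786570), the cyclin that activates CDK1, showed the same pattern of separate groups at E13.5 and a low control 1 at E14.5. It was at 139.6 and 155 CPM in E13.5 null-labelled libraries, against 169, 188 and 189.5 CPM in controls. At E14.5 Ccnb1 was at 171 and 166 CPM in null-labelled libraries, against 143, 205 and 209 CPM in controls. Log2 fold changes of Ccnb1 were -0.31 (SE 0.16, edgeR adjusted p = 0.83) and -0.14 (SE 0.16, edgeR adjusted p = 0.88).

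Aurka (ENSMUSG00000027496, chromosome 2, 172356190 to 172370535) encodes the kinase that matures the spindle poles. It was at 57.6 and 63.6 CPM in E13.5 null-labelled libraries, against 64.0, 82.3 and 77.4 CPM in controls. At E14.5 Aurka was at 61.5 and 60.1 CPM in null-labelled libraries, against 70.3, 77.2 and 74.0 CPM in controls. The groups were apart at both stages, with log2 fold changes of -0.30 (SE 0.13, edgeR adjusted p = 0.73) and -0.28 (SE 0.13, edgeR adjusted p = 0.61). The other genes were Ccna2, Ccnb2, the mitotic transcription factor gene Foxm1, the kinase genes Plk1 and Aurkb, and Cdc20. They ran from -0.25 for Ccnb2 to -0.04 for Foxm1 at E13.5 and from -0.24 for Foxm1 to -0.07 for Cdc20 at E14.5, so Foxm1 was nearest to 0 at the first stage and furthest at the second of these 6 genes. The groups did not overlap for 4 of the 9 genes at E13.5 and for 2 of 9 at E14.5, against 10.9% and 11.8% of all genes.

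All 8 chromosome, kinetochore and spindle genes were below 0 at both stages, with medians of -0.21 at E13.5 and -0.24 at E14.5, which was -0.14 in the blocked fit. Mki67 (ENSMUSG00000031004, chromosome 7, 135689784 to 135716361) encodes Ki-67, the protein used as a stain for cycling cells. It was at 624 and 529.8 CPM in E13.5 null-labelled libraries, against 677, 658 and 469 CPM in controls, and control 3 was the lowest of the 5 libraries. At E14.5 Mki67 was at 488 and 607 CPM in null-labelled libraries, against 619.9, 783 and 755 CPM in controls. This was the lowest log2 fold change of the 36 genes at that stage, -0.39 (SE 0.18, edgeR adjusted p = 0.59), with the groups apart, while at E13.5 it was -0.06 (SE 0.18). The E13.5 value turned to 0.05 without null-labelled library 2 and to 0.04 without control 1. Top2a (chromosome 11, 98992943 to 99024189), which untangles sister chromatids, was at 632 and 618 CPM in E13.5 null-labelled libraries, against 704, 801 and 695 CPM in controls. At E14.5 Top2a was at 569.9 and 699 CPM in null-labelled libraries, against 639.6, 763 and 827 CPM in controls. The log2 fold change was -0.23 at both stages (SE 0.15 at each, edgeR adjusted p = 0.93 and 0.75), with the groups apart at E13.5 and overlapping at E14.5.

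The spindle checkpoint genes Bub1 and Bub1b, the kinetochore genes Cenpe and Cenpf, Kif11 and Birc5 ran from -0.29 for Bub1 to -0.04 for Cenpf at E13.5. At E14.5 they ran from -0.26 for Cenpf to -0.15 for Bub1b. Cenpf thus stood at opposite ends of the range at the 2 stages. Merged exon length moved with single libraries at E13.5. Over the 36 genes, which share a library and its depth, the deviation from the group mean was correlated with it. The Spearman values were 0.60 in control 1, -0.61 in control 3 and 0.51 in null-labelled library 1, the mirror image of library 2. Over 15371 genes the same values were 0.19, -0.16 and -0.02, and at E14.5 those of the 36 genes lay between -0.25 and 0.25. The part of length in the values of long genes such as Mki67 and Cenpf was not tested. The groups did not overlap for 4 of the 8 genes at E13.5 and for 6 of 8 at E14.5, against 10.9% and 11.8% of all genes.

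Averaged over both stages, 34 of 36 genes were below 0, against 53.7% of all genes, with a median of -0.18, a level 11.9% under the controls. edgeR called 0 of the 36 genes, where it called 1.87% of all genes, 275 of them higher and 79 lower. DESeq2 and limma-voom called 0 as well. At an unadjusted p under 0.05 there were 8 members, all lower, where 4.03% of all genes were lower: Aurka, Mcm10, Bub1, Mcm7, Top2a, Kif11, Birc5 and Bub1b. Aurka had the lowest log2 fold change, -0.29 (SE 0.09, edgeR adjusted p = 0.18), then Mcm10 at -0.27 (SE 0.09, edgeR adjusted p = 0.18). The highest was Ccne1 at 0.05 (SE 0.11, edgeR adjusted p = 0.93). Mki67 was at -0.23 (SE 0.13, edgeR adjusted p = 0.54). In the blocked fit it was at -0.28 (edgeR adjusted p = 0.019), the 1 member called, where that fit called 5.83% of all genes. The controls numbered 3 do not enter that value. For Mki67 E13.5 control 3 was the lowest library of its stage, at 469 CPM. E14.5 control 3, at 755 CPM, was above both null-labelled libraries of its stage.

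The genotype difference was not shown to differ between the stages. In the test of the interaction edgeR called 0 of 36 members and 0% of all genes, with 0 members at an unadjusted p under 0.05, where 2.4% of all genes were, and DESeq2 and limma-voom called 0 members. The interaction was below 0 for 15 of 36 genes, against 49.6% of all genes. It ran from -0.33 for Mki67 (95% interval -0.88 to 0.22) to 0.29 for Chek1 (95% interval -0.25 to 0.84). Mki67 and Ccnd1, at -0.28, had the lower value at E14.5, and Chek1 and Pcna, at 0.29, had the lower value at E13.5. The intervals are wide enough to hold no difference or one of the size of the genotype effects themselves.

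Between the stages no cell cycle gene passed in either genotype, while mitotic regulators lay mostly above 0. In null-labelled pancreas edgeR called 0 of 36 genes for E14.5 over E13.5, where it called 0.249% of all genes. In controls it called 0 of 36, where it called 1.12% of all genes. At an unadjusted p under 0.05 there were 2 members higher (Pcna and Cdk1) and 2 lower (Ccnd1 and Cenpe) in null-labelled pancreas, where 7.57% of all genes were higher and 6.2% lower. There were 0 in controls, where 15.5% of all genes were at that level. The medians of the 36 genes were 0.01 in null-labelled and 0.04 in control pancreas. Below 0 were 17 and 16 of the 36 genes, against 49.8% and 49% of all genes. Of the 9 mitotic regulators 8 were above 0 in each genotype, with medians of 0.24 in null-labelled and 0.16 in control pancreas, Foxm1 being the exception in null-labelled and Aurka in control libraries. Among these 9 genes Cdk1 was highest in null-labelled pancreas, at 0.34 (SE 0.14, edgeR adjusted p = 0.3), and stood at 0.24 (SE 0.11, edgeR adjusted p = 0.34) in controls. The medians of the other 4 roles lay between -0.09 and 0.15. Acinar differentiation markers moved with the stage: the summed level of 10 acinar genes was 7793 and 22873 CPM in E14.5 null-labelled libraries, against 2833 and 3496 CPM at E13.5. In controls it was 7362, 23828 and 18293 CPM at E14.5, against 2616, 4273 and 4440 CPM at E13.5. Their part in these values was not tested.

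Pcna had the highest stage difference in null-labelled pancreas. It averaged 309 ± 24.1 CPM at E14.5 and 216 ± 15.4 CPM at E13.5 (SD, n = 2 each), a log2 fold change of 0.52 (SE 0.15, edgeR adjusted p = 0.16). DESeq2 called it (adjusted p = 0.029), where it called 425 genes higher and 225 lower of 14497. In controls Pcna averaged 300.1 ± 38.1 CPM at E14.5 and 256 ± 21.5 CPM at E13.5 (SD, n = 3 each), at 0.23 (SE 0.12, edgeR adjusted p = 0.41). Ccnd1 had the lowest, with 151 ± 6.73 CPM at E14.5 and 221 ± 61.3 CPM at E13.5 in null-labelled pancreas (SD, n = 2 each), at -0.56 (SE 0.19, edgeR adjusted p = 0.23). Without E13.5 null-labelled library 2, the higher of the pair, it was -0.24. In controls Ccnd1 was at -0.28 (SE 0.16, edgeR adjusted p = 0.44). Among controls the ends of the range were Mki67, at 0.26 (SE 0.16, edgeR adjusted p = 0.49), and Chek1, at -0.33 (SE 0.16, edgeR adjusted p = 0.35). Mki67 averaged 719 ± 87.1 CPM in E14.5 and 601 ± 115 CPM in E13.5 controls (SD, n = 3 each), and without E13.5 control 3 the log2 fold change was 0.11. Chek1 averaged 47.4 ± 6.20 CPM in E14.5 and 59.5 ± 8.22 CPM in E13.5 controls (SD, n = 3 each).

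Further genes of the same pathways were also mostly below 0 between genotypes. Of 48 further DNA replication genes (origin recognition, polymerases, clamp loader, chromatin assembly) edgeR called 0 at either stage, with 46 below 0 at E13.5 and 43 at E14.5, against 51.5% and 52.7% of all genes, and medians of -0.17 and -0.14. They ran from -0.42 for Gmnn, the inhibitor of Cdt1, to 0.08 for the polymerase gene Pole at E13.5. At E14.5 they ran from -0.51 for the origin recognition gene Orc1 to 0.27 for the helicase partner gene Gins3. Of 44 further mitosis genes 0 were called, with 40 and 41 below 0 and medians of -0.16 and -0.15. They ran from -0.47 for the mitotic kinase gene Pbk to 0.11 for the phosphatase gene Cdc25b at E13.5, and from -0.44 for Ube2c, the ubiquitin-conjugating enzyme of mitotic exit, to 0.17 for Cdc25b at E14.5. Of 23 further G1/S regulators 0 were called, with 15 and 16 below 0 and medians of -0.06 and -0.12. Among these Rbl1, a relative of the retinoblastoma protein, was at -0.19 and E2f2 at 0.31 at E13.5, and Ccnd3, the third D-type cyclin gene, was at 0.27 at E14.5. At an unadjusted edgeR p under 0.05 there were 4 lower replication genes, 3 lower mitosis genes and 0 lower G1/S regulators at E13.5, against 2.17% of all genes. At E14.5 there were 3, 2 and 1 in the same order, against 2.73%, and 0 genes of these lists were higher at either stage. The null-labelled pair was under all controls for 19 of 48 replication and 21 of 44 mitosis genes at E13.5, against 10.9% of all genes, and for 18 and 17 at E14.5, against 11.8%. Over both stages edgeR called 0 genes of the 3 lists, with 11 lower replication genes, 14 lower mitosis genes and 2 lower G1/S regulators at an unadjusted p under 0.05, against 4.03% of all genes. The blocked fit called 2 replication genes lower at E13.5, where it called 3% of all genes, and 3 replication and 2 mitosis genes over both stages, where it called 5.83%.

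CDK inhibitors and arrest genes were split between directions. Of 23 listed 22 were tested, without Cdkn2a, which did not pass the count filter. Of these 11 were below 0 at E13.5 and 9 at E14.5, against 51.5% and 52.7% of all genes, with medians of 0 and 0.05. edgeR called 0 at either stage, where it called 0.307% and 0.111% of all genes. At an unadjusted p under 0.05, 2.17% of all genes were lower at E13.5 and 2.73% at E14.5. Of the 22 there were 0 at E13.5, and 2 higher and 1 lower at E14.5. The share of all genes higher at that level is not given here, so the 2 higher genes lack a background. The 2 were Cdkn1c, an inhibitor active in embryonic tissues, at 0.35 (SE 0.13, edgeR adjusted p = 0.41), and Ccng2, a cyclin G gene linked to cell cycle exit, at 0.39 (SE 0.13, edgeR adjusted p = 0.36). Cdkn2d, another CDK inhibitor gene, was at 0.31 (SE 0.29) at E13.5 and 0.45 (SE 0.29) at E14.5. The lower gene was Mdm2, which encodes the regulator of p53, at -0.30 (SE 0.12, edgeR adjusted p = 0.47). Between stages 0 genes of the 4 lists passed in null-labelled pancreas, where 0.249% of all genes did. The interaction test called 0 of all genes. In controls 3 genes of the 4 lists passed, where 1.12% of all genes did. Mycn, a Myc family transcription factor, fell by 1.0 in log2 CPM at E14.5 (SE 0.18, edgeR adjusted p = 0.031). Lin37, a subunit of the complex that represses cell cycle genes in resting cells, rose by 1.11 (SE 0.23, edgeR adjusted p = 0.047), and the stress-response gene Gadd45b rose by 1.16 (SE 0.23, edgeR adjusted p = 0.039). In null-labelled pancreas Mycn was at -0.82, Lin37 at 0.86 and Gadd45b at 1.43. With the replicate block, which was not taken as a pairing of the stages, 2 G1/S, 2 replication, 1 mitosis and 4 inhibitor or arrest genes passed in null-labelled pancreas. For this comparison that fit called 583 higher and 313 lower of the 18898 genes tested.

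Summed markers of mesenchyme, endothelium and 4 other tissues were higher in both null-labelled libraries than in every control of the stage, except for the neural sum at E14.5. The sum of 11 mesenchyme genes was 9811 and 8226 CPM in E13.5 null-labelled libraries, against 6884, 6961 and 6256 CPM in controls. At E14.5 it was 14667 and 9687 CPM in null-labelled libraries, against 9211, 7058 and 5794 CPM in controls. Most of this sum came from Col1a1, Col1a2 and Col3a1, at 2307, 2038 and 3603 of the 9811 CPM in E13.5 null-labelled library 1. At E13.5 Pdgfra averaged 167 CPM in null-labelled and 179 CPM in control libraries, and Pdgfrb 148 and 145 CPM. Single mesenchyme genes went both ways: edgeR called 2 higher (Lum and Dcn) and 3 lower (Barx1, Tlx1 and Nkx3-2) at E13.5, and 2 higher and 2 lower at E14.5, and the blocked fit called 3 each way at E13.5, and 5 higher with 3 lower at E14.5. The sum of 6 endothelial genes was 593 and 527 CPM in null-labelled libraries against 410.4, 438 and 378 CPM in controls at E13.5. At E14.5 it was 504 and 444 CPM in null-labelled libraries against 425, 405 and 411 CPM in controls. edgeR called 0 of the 6 at either stage and 1 higher over both, and the blocked fit 3 higher at E13.5 and 1 at E14.5. The summed level of 6 smooth muscle genes was 234 and 195 CPM in E13.5 null-labelled libraries, against 125, 141 and 119 CPM in controls. At E14.5 it was 480 and 234 CPM in null-labelled libraries, against 162, 118 and 113 CPM in controls. edgeR called 1 of the 6 higher at E13.5 (Acta2) and 2 at E14.5 (Acta2 and Actg2), and the blocked fit called 4 higher with 1 lower at E13.5, and at E14.5 it called 4 higher. The sum of 9 liver genes was 595 and 539 CPM in null-labelled libraries against 331, 455 and 382 CPM in controls at E13.5, and at E14.5 it was 619 and 587 CPM in null-labelled libraries against 392, 394 and 452 CPM in controls. edgeR called 0 of the 9 at either stage and 5 of 9 higher over both, and the blocked fit 3 higher at E13.5 and 5 at E14.5. Ttr, the largest part of the liver sum at E13.5, averaged 276 CPM in null-labelled and 279 CPM in control libraries at that stage. Afp averaged 177 and 75.9 CPM there. The sum of 9 neural and glial genes was 314 and 462 CPM in null-labelled libraries against 181, 227 and 215 CPM in controls at E13.5. At E14.5 it was 477 and 294 CPM in null-labelled libraries against 294, 229 and 214 CPM in controls, with 0 of 9 called at either stage and 4 of 9 higher over both. Here the blocked fit called 7 of 9 higher at E13.5, 5 at E14.5 and 7 over both. No gene of the smooth muscle, liver and neural lists was at 0 in any library. The sum of 9 skeletal muscle genes was 89.9 and 32.1 CPM in null-labelled libraries against 25.2, 19.6 and 16.3 CPM in controls at E13.5. At E14.5 it was 258 and 35.5 CPM in null-labelled libraries against 22.5, 24.0 and 11.3 CPM in controls, with 0 of 9 called at either stage and 3 higher over both, and the blocked fit called 2 higher at E13.5, 5 at E14.5 and 6 over both. Of these Ckm was at 0 in both E13.5 null-labelled libraries and in 2 E13.5 controls, Myog in 1 E13.5 control and Myod1 in 1 E14.5 control. The macrophage sum was above every control at E14.5 and overlapped at E13.5, and the progenitor, acinar, endocrine, erythroid and mesothelium sums overlapped at both stages. The part of such cells in the cell cycle values was not tested. Beside these marker counts, edgeR called 0.307% of all 18898 genes at E13.5, 0.111% at E14.5 and 1.87% over both stages. The blocked fit called a larger share, 3% at E13.5 and 5.83% over both stages. Its E14.5 calls were 342 genes up and 122 down in null-labelled pancreas.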

How the data were processed

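Counts of reads per gene were made by the authors and deposited as raw values for 10 libraries. The submitters' processing notes name TopHat, HTSeq, DESeq2 and the mm10 build, with no versions, and the strand setting of the counting is not given in the sources used here. Libraries were poly(A)-selected, per the labels' protocols. With the strand setting unknown, how reads of overlapping or antisense genes were counted is not known.

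From these counts, CPM were computed with edgeR 4.0.16 in R 4.3.3 after TMM scaling. Genes passing edgeR's filterByExpr (18898, holding 99.9% of counts) entered 1 quasi-likelihood fit with a mean for each of the 4 groups over all 10 libraries, so that the groups share the estimate of spread. The fit left 6 residual degrees of freedom. Null-labelled was set against control at each stage and over both, E14.5 against E13.5 in each genotype, and the genotype difference between stages. P-values were adjusted by Benjamini-Hochberg over all genes tested, with a threshold of 0.05, and the standard error is the fold change divided by the root of F. Level per length divides CPM by the merged length of all annotated exons of a gene. The procedure was tested on simulated counts, drawn independently for each gene, with changes far larger than the median differences given here. It therefore does not show whether differences of that size would be found.

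Libraries of a group differed by far more than sampling noise (chi-square per gene 11.2 to 43.9), so none was a duplicate. Same-numbered libraries of the 2 genotypes deviated together from their group means (E13.5 pairs r = 0.45 and 0.19, E14.5 pairs r = 0.51 and 0.28), so the fit blocked on that number is also given where it changes a call between genotypes. With 2 null-labelled libraries these values are not independent, and null-labelled library 2 correlated more with control 3 (0.33 and 0.38). In the blocked fit control 3, with no null-labelled library of its number, does not enter the genotype difference. That difference rests on fewer libraries and fewer residual degrees of freedom than in the fit without the block. Across stages the same-numbered controls were at r = 0.39, 0.08 and 0.21 and the same-numbered null-labelled libraries at 0.21, all above 0. E13.5 control 2, at 0.08, correlated more with E14.5 control 3 (0.18). The numbers were not taken to pair the stages, and whether the stages share an effect of the number was not tested.

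Described in full were 13 members fixed by role, any member called, and the highest and lowest fold change of each genotype and stage comparison. Mcm10 was added after its values were seen. Genes of other lists were named by size of fold change among those with a mean of at least 1 CPM, or where called or counted. The members and all lists were chosen with earlier results of these data known. Alternatives were DESeq2 1.42.0, limma-voom (limma 3.58.1), other scalings, no filter, only the groups compared, the block, and libraries left out. Every library was left out once. Scaling by library totals and the fit without all 4 libraries numbered 1 were added after seeing the data. Promoter windows came from RefSeq.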

Additional observations from a re-analysis of the deposited data

How the results depend on the processing

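edgeR called 0 of the 36 genes in each of the 6 comparisons, also with each library left out in turn. The exceptions were 1 gene lower at E13.5 and 1 lower over both stages with the replicate block (Chek1 and Mki67, above), and the stage comparisons. For E14.5 over E13.5 in null-labelled pancreas, 1 gene was higher with DESeq2 and with the replicate block. Each time it was Pcna at 0.52 (DESeq2 adjusted p = 0.029, edgeR adjusted p = 0.020). Of all genes, DESeq2 called 425 higher and 225 lower of 14497 there, and the block 583 higher and 313 lower of 18898. Without all 4 libraries numbered 1 Pcna was also at 0.52. In null-labelled pancreas 1 gene was lower with no low-count filter, Ccnd1 at -0.56 (edgeR adjusted p = 0.040). That setting called 609 genes higher and 279 lower of 33383. Without the 4 libraries Ccnd1 was at -0.86 in null-labelled pancreas. In controls Mki67 was then at 0.45, and Ccnd1 was lower at E14.5. The fit without the 4 left 1 null-labelled library at each stage, so its stage calls are not given. Among the 36 genes the block changed no other call. The cause was not tested. Medians between genotypes ran from -0.27 to -0.17 at E13.5, -0.23 to -0.10 at E14.5 and -0.23 to -0.15 over both with single libraries left out, and under no alternative did one move beyond the spread between libraries.

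Genes with the null-labelled libraries below all controls numbered 13 to 27 at E13.5 and 17 to 31 at E14.5 with single libraries left out, and 25 and 33 without the 4. The share of all genes was also higher there, at 22.9% beside the 27, 23.4% beside the 31, and 34.8% and 38.6% without the 4. Those above all controls numbered 0 to 1 at E13.5 and 0 to 2 at E14.5, with 1 at E13.5 without both null-labelled libraries numbered 1 and 1 without the 4. Below 0 in the genotype-by-stage comparison were 7 to 23 genes.

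Directions of the genes described in full turned as follows. At E13.5 Ccnd1 was at 0.12 with the replicate block, 0.25 without both null-labelled libraries numbered 1, 0.0094 with library totals only and 0.15 without the 4, and ran from -0.33 to 0.25 with single libraries left out. Ccnd2 was at 0.0034 with the block and 0.00014 without both null-labelled libraries numbered 1, and ran from -0.085 to 0.0047. The block also turned Cdc20, Foxm1 and Plk1, to 0.02, 0.02 and 0.01. Mcm2 was at 0.053 without both of those and ran from -0.26 to 0.058, Mki67 from -0.21 to 0.053 and Ccne1 from -0.046 to 0.30. At E14.5 Ccnd2 was at -0.021 without the 4 and ran from -0.018 to 0.13, Ccne1 from -0.24 to 0.12 and Pcna from -0.044 to 0.14. Over both stages Ccne1 ran from -0.050 to 0.13. Where 1 null-labelled library remained, it was assumed to vary like the other groups. With 2 libraries against 3, the median half-width of 0.31 log2 is wider than the median differences, which limits what single genes can show at this number of pools.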

Other observations

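The balance of mitotic to licensing genes differed by stage in every library. The summed CPM of the 9 mitotic regulators divided by that of the 9 licensing genes was 0.714 and 0.692 in E14.5 null-labelled libraries, against 0.596 and 0.573 in E13.5 null-labelled libraries. In controls the ratio was 0.637, 0.747 and 0.670 at E14.5, against 0.592, 0.579 and 0.612 at E13.5. All 5 E14.5 libraries were thus above all 5 E13.5 libraries, and the ranges of the genotypes overlapped at each stage. The ratio was chosen after the values were seen, and it has no test.

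The 29 genes with a promoter entry had close median genotype differences with and without the promoter words. At E13.5 the median log2 fold change was -0.19 for the 11 genes with the homology region and -0.22 for the 18 without it, and at E14.5 it was -0.16 for both. For E2F words the medians were -0.22 for 7 genes with and -0.18 for 22 without at E13.5, and -0.20 with and -0.15 without at E14.5.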
